A study of Mus musculus with 2 samples.

Results

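The genes described here were the 7 members of the cyclin-dependent kinase (CDK) inhibitor families, Cdkn1a, Cdkn1b, Cdkn1c, Cdkn2a, Cdkn2b, Cdkn2c and Cdkn2d, chosen as classical targets of Bmi1 and as brakes of the cell cycle in the cochlea. A peak was counted for a gene when its centre lay within 3 kb of any of the gene's transcription start sites (TSSs), or inside the gene body or the 10 kb upstream of it. By that rule the genes held 15 of the 77596 peaks in the WT-labelled list and 18 of the 100431 peaks in the Bmi1 KO-labelled list. A peak with its centre within 3 kb of a TSS is called a promoter peak below, and 8 of the 15 and 12 of the 18 were promoter peaks.

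The data are ATAC-seq peak lists, in which open DNA is found by where the Tn5 transposase inserts sequencing adapters. For each genotype 1 library was made from the organ of Corti of P2 mice, pooled from 10 animals (20 cochleae). The Bmi1 KO mice were homozygous for the germline null allele Bmi1 tm1Brn on a C57BL/6J background, the WT mice were their littermates, and the labels name no treatment of either group. As Bmi1 is lost in the whole animal, the pooled tissue cannot separate changes inside hair cells or supporting cells from changes in the cells around them or in their proportions. With 1 library per genotype there is no replicate error, no difference was tested, and every interval below covers counting error only. In both lists 100% of the peak names begin with the file prefix of the opposite genotype. The lists are therefore called by their labels, and each direction below rests on those labels and would turn if they were exchanged.

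CDK inhibitors stop the cell cycle before DNA replication. The INK4 proteins (p16Ink4a and p15Ink4b, from Cdkn2a and Cdkn2b, with p18Ink4c from Cdkn2c and p19Ink4d from Cdkn2d) bind Cdk4 and Cdk6, whereas the CIP/KIP proteins (p21Cip1, p27Kip1 and p57Kip2, from Cdkn1a, Cdkn1b and Cdkn1c) also act on Cdk2 complexes. Cdkn2a additionally encodes p19Arf, which starts from its own promoter, reads the shared exon in another frame and holds back Mdm2, the ubiquitin ligase of p53. Bmi1 is a subunit of Polycomb repressive complex 1 and is known for silencing the Ink4a/Arf locus, and in the cochlea p27Kip1 marks the exit of sensory progenitors from the cell cycle.

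Promoter sequence was read for 6 of the 7 genes, all but Cdkn1c, and these promoters are not alike. From them 6 windows are shown because the peak findings turn on the starts they lead to. Each is the 250 bp just upstream of a TSS in GRCm38, read from the genome sequence of RefSeq with the TSS of GENCODE vM21, 5′ to 3′ on the strand of the gene. Capitals mark GC boxes (GGGCGG) on either strand. Also in capitals, on either strand, are the boxes bound by NF-Y (CCAAT) and the E2F sites (TTTGGCGC or TTTCCCGC). Where a GC box and another match share bases, the capitals run together. TATA boxes (TATAAA) were searched in the same way. The windows of Arf, Ink4a, Cdkn2c and Cdkn2d are on the minus strand, and those of Cdkn1a and Cdkn1b on the plus strand.
Arf, chr4:89294654-89294903: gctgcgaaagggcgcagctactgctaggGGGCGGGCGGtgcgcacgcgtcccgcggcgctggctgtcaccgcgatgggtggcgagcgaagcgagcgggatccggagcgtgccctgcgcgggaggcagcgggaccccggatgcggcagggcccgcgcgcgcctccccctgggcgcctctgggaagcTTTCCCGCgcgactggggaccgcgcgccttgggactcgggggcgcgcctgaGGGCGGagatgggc
Ink4a, chr4:89282193-89282442: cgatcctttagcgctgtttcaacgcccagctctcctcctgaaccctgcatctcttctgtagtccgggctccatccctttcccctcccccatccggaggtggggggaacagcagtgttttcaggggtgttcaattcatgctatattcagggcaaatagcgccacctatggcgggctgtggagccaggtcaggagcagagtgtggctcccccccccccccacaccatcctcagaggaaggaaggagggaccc
Cdkn2c, chr4:109667190-109667439: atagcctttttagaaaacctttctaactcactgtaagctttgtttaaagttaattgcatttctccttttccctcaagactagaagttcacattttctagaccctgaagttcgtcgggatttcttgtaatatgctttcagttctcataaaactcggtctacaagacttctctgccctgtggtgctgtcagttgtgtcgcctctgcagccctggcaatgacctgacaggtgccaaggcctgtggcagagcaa
Cdkn2d, chr9:21291408-21291657: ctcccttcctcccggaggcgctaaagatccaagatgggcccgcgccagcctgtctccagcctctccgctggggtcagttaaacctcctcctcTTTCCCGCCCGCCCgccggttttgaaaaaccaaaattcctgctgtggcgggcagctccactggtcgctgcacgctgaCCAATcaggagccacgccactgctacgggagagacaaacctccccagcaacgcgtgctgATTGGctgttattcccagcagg
Cdkn1a, downstream start, chr17:29093519-29093768: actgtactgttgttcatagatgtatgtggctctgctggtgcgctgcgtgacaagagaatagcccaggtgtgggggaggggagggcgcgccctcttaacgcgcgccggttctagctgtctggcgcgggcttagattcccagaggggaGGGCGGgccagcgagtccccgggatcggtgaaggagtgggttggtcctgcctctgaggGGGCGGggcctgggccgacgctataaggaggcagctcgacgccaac
Cdkn1b, chr6:134920151-134920400: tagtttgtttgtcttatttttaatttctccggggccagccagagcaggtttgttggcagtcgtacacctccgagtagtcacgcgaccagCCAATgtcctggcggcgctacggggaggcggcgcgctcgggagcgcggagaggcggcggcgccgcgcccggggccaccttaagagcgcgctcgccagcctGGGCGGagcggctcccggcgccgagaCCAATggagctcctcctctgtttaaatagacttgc

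The Arf window was 77.6% G+C, more than 96.7% of the 54349 windows of the same length upstream of protein-coding TSSs, whose median was 55.2%. It held 3 GC boxes and 1 E2F site 57 bp from the TSS. The Ink4a window, 12461 bp further along the same gene, was 60% G+C with a CpG ratio (observed over expected) of 0.316, and none of the 4 motifs marked or searched above was in it. At Cdkn2c the window was poor in G+C, 44%, and none of these motifs was in it either. The Cdkn2d window held 2 GC boxes, 2 CCAAT boxes and 1 E2F site. Cdkn1a has a start further upstream and a downstream one, and the window of the downstream start held 2 GC boxes. At Cdkn1b, 1 GC box and 2 CCAAT boxes were found, with the CpG ratio at 1.08 against a median of 0.507 over all windows. The window of Cdkn2b, 52.8% G+C, held none of the 4 motifs.

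Over the 8 windows examined, which came from 6 genes, a GC box was found in 4 and in 40.1% of all windows. A CCAAT box was in 2, against 32.8% of all windows, and an E2F site in 2, against 1.61%. No TATA box was found in the 8, and 10.4% of all windows held one. E-boxes (CANNTG) were present in 3 (63.1% of all windows). The p53 half-site, searched by its consensus, was in 1 (6.32%). That 1 was the window of the upstream start of Cdkn1a, a known p53 target, where 2 matches lay 63 and 41 bp from the TSS. A match of letters is a description and says nothing of whether a factor was bound.

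Each peak is given by its fold enrichment at the summit and by its percentile, the percent of peaks in its own list with a lower −log10 p. The fold enrichment is the deposited ratio of the stacked reads at the summit to the local background, each with 1 added. Reads and background were solved from the deposited values, and the background met most often was 6.32 reads for the WT-labelled library and 8.04 for the Bmi1 KO-labelled library, 1.27 times as many. At those backgrounds the lowest listed summit held 13 reads (2.06 times the background) and 15 reads (1.87 times) respectively, so a site below that is missing from a list without being closed. Of all peaks, 52.4% in the WT-labelled list and 62.8% in the Bmi1 KO-labelled list had a q-value under 0.05. Of 10 fixed markers for each cell type, hair cell genes had a promoter peak at 8 (labelled WT) and 7 (labelled Bmi1 KO), supporting cell and cochlear epithelium genes at 8 and 8, neuron genes at 7 and 7, Schwann cell and glia genes at 6 and 7, mesenchyme genes at 8 and 7, endothelium genes at 7 and 7, and blood and macrophage genes at 4 and 4. The median percentile of the strongest promoter peak went from 31.4 to 82.9 for the endothelium genes and from 52.99 to 81.9 for the neuron genes. It went from 65.5 to 81.1 for mesenchyme, 64.7 to 75.3 for Schwann cell and glia, and 81.1 to 90.5 for supporting cell and epithelium genes. The hair cell genes fell from 60.4 to 51.0 and the blood and macrophage genes from 50.4 to 42.9. Over all protein-coding genes with such a peak in both lists the medians were 78.5 and 90.8. The part of such shifts in the results below was not tested. Neither list had a promoter peak at Tmc1 of hair cells, at Lfng or Sox10 of supporting cells or at Ptprc, Cd68, Hbb-bt or Gata1 of blood, and since promoters of many other tissues were listed too, the lists show an open promoter and not the share of a cell type. The targeted gene Bmi1 had 1 peak labelled WT (fold enrichment 2.46, percentile 35.9) and 4 labelled Bmi1 KO, the strongest at percentile 92.0, and which bases the null allele lacks is not given in the sources used here.

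Taken over the 7 genes, the peaks in the Bmi1 KO-labelled list were wider and stood higher in their list. Their width was 276 to 1405 bp (median 461.5) against 217 to 681 bp (median 356) in the WT-labelled list, and they covered 10125 bp against 5581 bp. No such total was taken over other genes, and the Bmi1 KO-labelled list is the longer one, with 100431 peaks against 77596. Over all peaks the median width was 277 bp labelled Bmi1 KO and 260 bp labelled WT. Promoter peaks alone had medians of 486.5 and 366.5 bp at the 7 genes. Over all protein-coding genes those of promoter peaks were 334 bp and 288 bp. The median percentile of the genes' peaks was 81.6 (3.92 to 99.5) and 34.9 (6.33 to 96.2), while the fold enrichments lay between 1.99 and 4.48 (median 2.52) and between 2.11 and 3.18 (median 2.32). A q-value under 0.05 was reached by 17 of the 18 peaks and 7 of the 15. Among promoter peaks alone the median percentile was 78.3 and 57.5, and 12 of 12 and 5 of 8 had a q-value under 0.05. The same direction held for promoter peaks of all protein-coding genes, with a median percentile of 65.4 and 52.99 and a q-value under 0.05 in 73.3% and 60.7%. Of the 15 peaks labelled WT, 9 (60%, exact binomial 95% interval 32.3 to 83.7%) overlapped a peak labelled Bmi1 KO, and of the 18 in the other direction 10 did (55.6%, 30.8 to 78.5%). Over all peaks these shares were 24.8% and 18.5%. For promoter peaks alone they were 6 of 8 (75%, 34.9 to 96.8%) and 7 of 12 (58.3%, 27.7 to 84.8%), against 48.8% and 36.6% of the promoter peaks of all protein-coding genes.

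**Figure D1:**
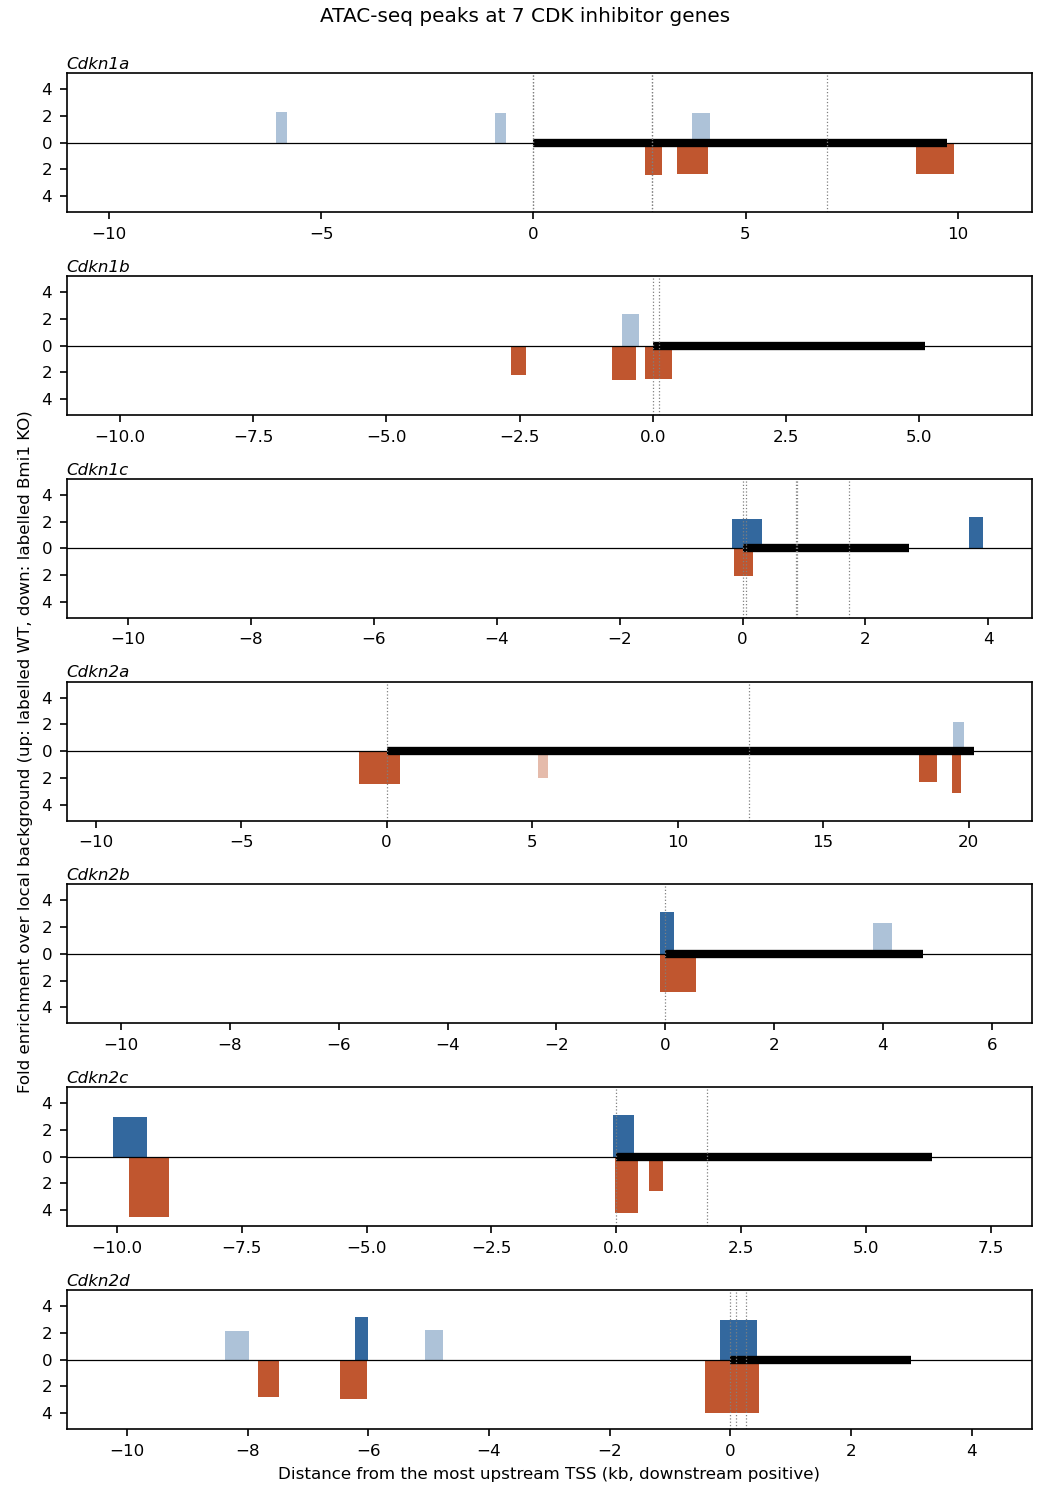
Peaks at the 7 CDK inhibitor genes, with the distance from the most upstream TSS in kb on the x axis and the fold enrichment over local background on the y axis, drawn upwards in blue for the WT-labelled list and downwards in red for the Bmi1 KO-labelled list. Pale bars have a q-value of 0.05 or more, black lines are gene bodies and dotted lines TSSs, and only in the lower track does a peak lie over the Arf start of Cdkn2a, at a fold enrichment of 2.43.

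Promoter peaks were found at 6 of the 7 genes in the WT-labelled list and at 7 of 7 in the Bmi1 KO-labelled list. Over all 21938 protein-coding genes the shares were 59.1% and 68.2%. In both lists together 6 genes had one, where 53% of all genes did, and 1 gene, Cdkn2a, had one in the Bmi1 KO-labelled list only, which was so for 15.2% of all genes. By the whole rule, 3 genes (Cdkn1b, Cdkn2a and Cdkn2c) had more peaks labelled Bmi1 KO than WT (44.3% of all genes) and 3 (Cdkn1c, Cdkn2b and Cdkn2d) had fewer (21.8% of all genes), with Cdkn1a at 3 in each. The mean was 2.14 peaks per gene labelled WT and 2.57 labelled Bmi1 KO, against 2.69 and 3.38 over all protein-coding genes. At the level of single starts, 7 of the 20 distinct TSSs lay inside a peak labelled WT and 12 inside a peak labelled Bmi1 KO. Of the 93513 distinct TSSs of all protein-coding genes, 19.5% and 31.6% did.

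Cdkn2a (chr4:89274471-89294653, minus strand) differed most in the number of peaks, with 1 labelled WT and 4 labelled Bmi1 KO. The Arf start (transcript Cdkn2a-202) lay inside a peak labelled Bmi1 KO at chr4:89294189-89295593. That peak was 1405 bp long, wider than 99.7% of its list, and its summit was 265 bp upstream of the TSS. It was moderate in strength, with 21 reads over a background of 8.04 (exact Poisson 95% interval of the reads 13.0 to 32.1), a fold enrichment of 2.43, a q-value of 0.0226 and percentile 54.4. It covered all 250 bases of the Arf window printed above. The WT-labelled list had no peak there, and its summit nearest to the Arf TSS was 12436 bp away. The value of the WT library at Arf is therefore unknown below the listing limit of 2.06 times the most frequent background, and the Arf peak labelled Bmi1 KO stood at 2.61 times its own.

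The Ink4a start (transcript Cdkn2a-201) had no promoter peak in either list. The nearest summits were 7343 bp (labelled WT) and 6408 bp (labelled Bmi1 KO) away, and no base of the Ink4a window was in a peak. Near the 3′ end of Cdkn2a, in the intron before the last exon of the gene, both lists had an overlapping peak. It was at chr4:89274807-89275170 in the WT-labelled list, with 15 reads over 6.32, fold enrichment 2.18, a q-value of 0.205 and percentile 7.30. In the Bmi1 KO-labelled list it was at chr4:89274910-89275215, with 27 reads over 8.04, fold enrichment 3.10 and percentile 93.1. The reads over background differed 1.41-fold between them, with an interval of 0.726 to 2.86 that includes 1. Further intron peaks at 89275730-89276340 (fold enrichment 2.32, percentile 39.9) and 89289123-89289456 (1.99, percentile 3.92, q-value 0.233) were listed under Bmi1 KO alone. The lincRNA gene Gm12606 has a TSS nearer to the summits of the 3 peaks at the 3′ end than Cdkn2a does, 1446 to 2381 bp away.

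Cdkn2b (chr4:89306299-89311039, minus strand), whose TSS is 16386 bp upstream of that of Arf, went the other way. The WT-labelled list had a narrow peak over its TSS, 258 bp, with 22 reads over 6.32, fold enrichment 3.14 and percentile 91.3. In the Bmi1 KO-labelled list the peak over the TSS was 660 bp long, with 25 reads over 8.04, fold enrichment 2.87 and percentile 87.8. It extended further into the gene than its counterpart, and both summits were in the 5′ UTR, 31 and 75 bp from the TSS. The ratio of reads over background was 0.893 (0.483 to 1.66), so that no difference was detectable at this depth. A weak peak in the coding exon, 89306872-89307227, was listed under WT alone (fold enrichment 2.32, percentile 19.5, q-value 0.125).

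Across the whole Ink4b-Arf-Ink4a locus with 3 kb on each side, the WT-labelled list held 3 peaks over 978 bp and the Bmi1 KO-labelled list held 6 over 3604 bp, of which 2 in each overlapped the other list. The Arf peak made up 1405 of the 3604 bp. The sixth peak labelled Bmi1 KO lay 810 bp past the end of Cdkn2a, outside the rule (fold enrichment 2.10, percentile 12.3, q-value 0.143). These counts and lengths have no matching value over other loci. The Bmi1 KO-labelled list is also the longer one, with 100431 peaks against 77596.

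**Figure D2:**
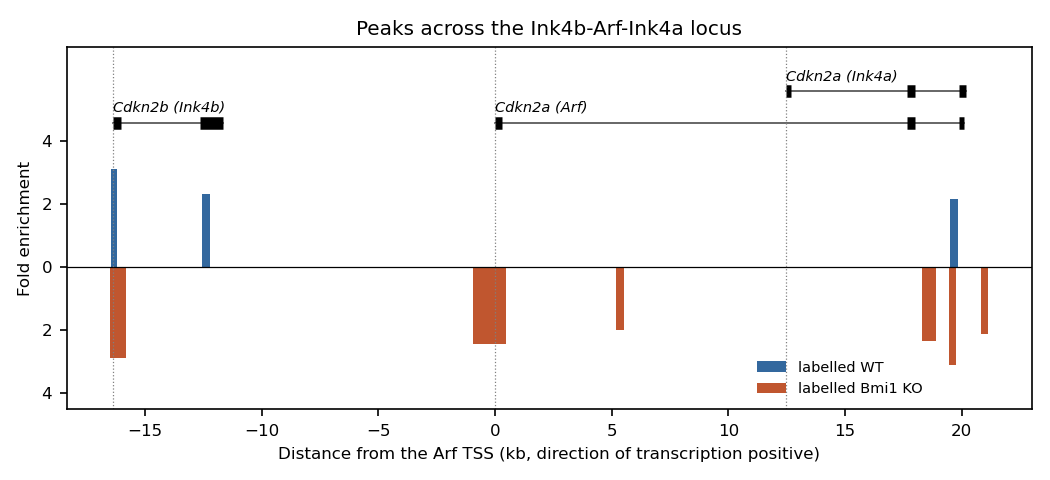
The Ink4b-Arf-Ink4a locus, with distance from the Arf TSS in kb along the direction of transcription on the x axis and the fold enrichment of each peak on the y axis, upwards for the WT-labelled list and downwards for the Bmi1 KO-labelled list. Exons are black boxes and TSSs dotted lines, and the peaks labelled Bmi1 KO include the 1405 bp peak at Arf while none of either list is at Ink4a.

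Cdkn2c (chr4:109660876-109667189, minus strand), which encodes p18Ink4c, had a strong peak over the TSS of transcript Cdkn2c-202 in both lists. In the WT-labelled list it was 109666832-109667267, with 22 reads over 6.32 (13.8 to 33.3), fold enrichment 3.14, a q-value of 0.00139 and percentile 91.3. In the Bmi1 KO-labelled list it was 109666752-109667215, with 37 reads over 8.04 (26.1 to 51.0), fold enrichment 4.20, a q-value of 3.20e-10 and percentile 98.9. The 2 summits lay 10 bp apart in the 5′ UTR, and the ratio of reads over background was 1.32 (0.760 to 2.35), an interval that includes 1. A second promoter peak, 109666262-109666542, was listed under Bmi1 KO alone, 755 bp downstream of the TSS (fold enrichment 2.54, percentile 66.7). The peaks themselves were rich in G+C although the window upstream of the TSS was not, 71.6% in the WT-labelled list and 74.8% in the Bmi1 KO-labelled list.

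The remaining Cdkn2c peaks lay at the far end of the 10 kb upstream, where the neighbouring gene Faf1 starts in the other direction. They were 109676590-109677270 labelled WT (fold enrichment 3.00, percentile 86.5) and 109676131-109676936 labelled Bmi1 KO (4.48, percentile 99.4), with summits 130 and 226 bp from a Faf1 TSS, and each had a Faf1 TSS inside it. These values cannot be assigned to Cdkn2c rather than to Faf1. Both lie close to the limit of the rule. The WT-labelled peak had its centre 259 bp inside it, and another peak labelled Bmi1 KO at Faf1, 109677071-109677692 (3.46, percentile 96.7), missed it by 193 bp.

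Cdkn2d (chr9:21288410-21291407, minus strand), for p19Ink4d, which keeps hair cells out of the cell cycle, had the promoter peak with the highest percentile of the 7 genes in both lists, although the fold enrichment at Cdkn2c was higher in each. It covered all 3 TSSs. The peak labelled WT, 21290974-21291586, had 30 reads over 9.36, fold enrichment 2.99 and percentile 96.2. The peak labelled Bmi1 KO, 21290935-21291836, had 53 reads over 12.6, fold enrichment 3.97, a q-value of 1.55e-13 and percentile 99.5. Their ratio of reads over background was 1.31 (0.823 to 2.13). Further upstream a pair of overlapping peaks had nearly equal strength, 24 reads over 6.86 and 27 over 8.44, at percentiles 94.2 and 92.2 (ratio 0.914, 0.508 to 1.66). The most upstream peaks did not overlap each other, 21299381-21299787 labelled WT (fold enrichment 2.11, percentile 6.33) and 21298889-21299240 labelled Bmi1 KO (2.83, percentile 90.1). For these and the pair the TSS of Ap1m2 was nearer than that of Cdkn2d, at 3556 to 5469 bp. A further peak labelled WT, 21296172-21296466, was weak (2.23, percentile 27.1). Just outside the rule, by 116 bp, a peak labelled Bmi1 KO lay at the 3′ end of the gene (fold enrichment 2.73, percentile 95.5).

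Cdkn1a (chr17:29090976-29100727, plus strand), for p21Cip1, had 3 peaks in each list, and 1 pair of them overlapped. At the downstream start (transcripts Cdkn1a-201 and Cdkn1a-205) a peak was listed under Bmi1 KO alone, 29093603-29093996. It had 34 reads over 13.3 (23.5 to 47.5), fold enrichment 2.45, a q-value of 0.000933 and percentile 87.2, and covered 166 of the 250 bases of the window printed above. The overlapping pair was in the first intron of these transcripts, 29094720-29095127 labelled WT and 29094362-29095081 labelled Bmi1 KO. The former had 22 reads over 9.38, fold enrichment 2.22 and percentile 34.9, and the latter 32 reads over 13.2, fold enrichment 2.33 and percentile 80.6. The ratio was 1.04 (0.583 to 1.87), so the gap in percentile stood beside a ratio near 1. The gene AC167363.2, whose transcript type is not settled in GENCODE, overlaps the downstream start on the opposite strand and has a TSS nearer to both summits. The third peak labelled Bmi1 KO lay across the 3′ end of the gene, 29100005-29100881 (fold enrichment 2.37, percentile 63.4), and overlapped by 39 bp a WT-labelled peak that was 115 bp outside the rule (2.11, percentile 6.50). The upstream start of Cdkn1a lay in no peak. The nearest peak there was labelled WT, 706 bp further upstream (fold enrichment 2.21, percentile 27.8), and another labelled WT was 5965 bp upstream, nearer to the lincRNA gene Trp53cor1 (2.31, percentile 28.7).

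Cdkn1b (chr6:134920401-134925513, plus strand), for p27Kip1, had 1 peak labelled WT and 3 labelled Bmi1 KO. Both lists had a peak just upstream of the TSS. The WT one, 134919816-134920140, had 18 reads over 7.18, fold enrichment 2.32, a q-value of 0.0801 and percentile 31.5. The Bmi1 KO one, 134919628-134920086, had 28 reads over 10.3, fold enrichment 2.56, a q-value of 0.00196 and percentile 82.7. As at Cdkn1a, the ratio of reads over background was near 1, at 1.08 (0.577 to 2.07). The 2 TSS positions themselves lay in a peak of the Bmi1 KO-labelled list alone, 134920254-134920762 (26 reads over 9.78, fold enrichment 2.50, percentile 76.0), and the third was 2528 bp upstream (2.22, percentile 53.5).

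Cdkn1c (chr7:143458339-143461050, minus strand), for p57Kip2, an imprinted gene, had a peak over its start at almost the same percentile in both lists. The peak over the TSS of Cdkn1c-201 was 143460732-143461227 labelled WT, with 26 reads over 11.3, fold enrichment 2.20 and percentile 49.97. Labelled Bmi1 KO it was 143460876-143461194, with 30 reads over 14.2, fold enrichment 2.04 and percentile 49.5. The ratio was 0.917 (0.524 to 1.61). A second peak labelled WT past the 3′ end of the gene, 143457143-143457369, ranked higher (fold enrichment 2.37, percentile 65.0) and had no counterpart, and it is this peak that makes Cdkn1c appear lower in the Bmi1 KO-labelled list when the strongest promoter peak is taken.

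For 5 of the 7 genes the strongest promoter peak stood higher in the Bmi1 KO-labelled list, counting Cdkn2a, which had none in the other list. The share was 68.8% over the 16298 protein-coding genes that had such a peak in at least 1 list. Percentiles differed by 52.3 at Cdkn1a and 51.2 at Cdkn1b, more than at 90.6% and 90.1% of the 11618 genes that had one in both lists. They differed by 7.56 at Cdkn2c, 3.32 at Cdkn2d, -3.48 at Cdkn2b and -15.6 at Cdkn1c. The median of all these genes was 5.45, with the middle 50% from -2.23 to 26.6, and their median percentile was 78.5 labelled WT and 90.8 labelled Bmi1 KO. Cdkn1a and Cdkn1b thus stood below the median gene in both lists, and Cdkn2c and Cdkn2d above it in both. The room for a rise depends on the starting percentile. A gene at the WT-labelled median of 78.5 could not have risen by as much as Cdkn1a or Cdkn1b did. At Cdkn1a, as at Cdkn1c, the strongest promoter peaks of the lists did not overlap. The overlapping intron pair of Cdkn1a stood at percentiles 34.9 and 80.6.

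**Figure D3:**
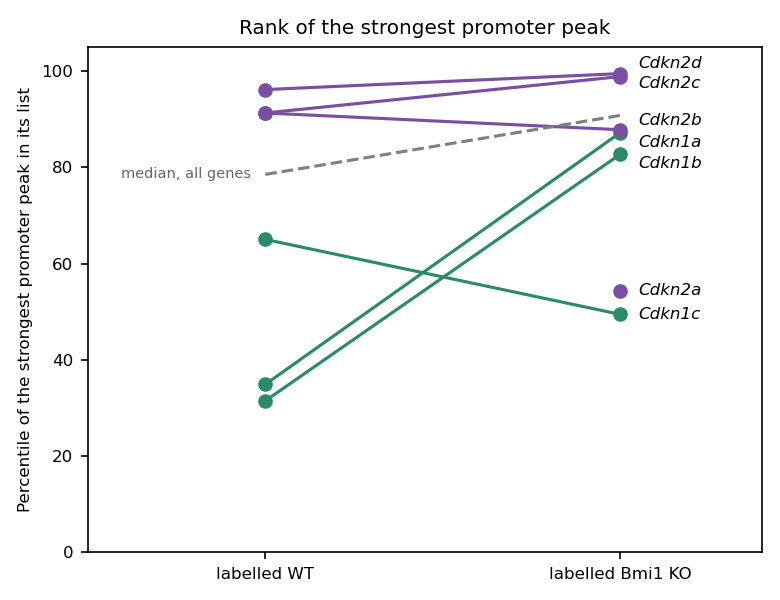
Percentile of the strongest promoter peak of each gene within its own list (y axis) in the WT-labelled list and the Bmi1 KO-labelled list (x axis), in purple for the INK4 genes and green for the CIP/KIP genes, with the median of all genes that had one in both lists dashed. Cdkn1a goes from 34.9 to 87.2 and Cdkn1b from 31.5 to 82.7, while Cdkn2c and Cdkn2d are above 90 in both and Cdkn2a has no point in the WT-labelled list. At Cdkn1a and Cdkn1c the line joins peaks that do not overlap.

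Where peaks of the lists overlapped, their reads over background could be set side by side. The summit is the highest point of a peak, so the values are high in both lists. The 9 overlapping peaks labelled WT gave 10 pairs, since the one at Faf1 met 2 peaks. Of the 10, 7 had a ratio above 1, labelled Bmi1 KO over labelled WT, and the exact interval of each of the 10 included 1. The matching share over all overlapping peaks of the lists was not taken. The ratios ran from 0.893 to 1.47, with a median of 1.11. The 1.47 came from a pair at Faf1 with summits 765 bp apart, and the other Faf1 pair stood at 1.13. Both Faf1 pairs are among the 7 above 1, and neither can be assigned to Cdkn2c. Without them the largest ratio was 1.41, at Cdkn2a. The strongest promoter peaks overlapped at 4 genes (Cdkn1b, Cdkn2b, Cdkn2c and Cdkn2d), and 0 of the 4 reached a ratio of 1.5, against 3.73% of the 6427 genes with such a pair. Those genes are a reference for these 4 pairs and not for the other overlapping pairs. Their median ratio was 1.03, the middle 50% lay from 0.910 to 1.18, and 56.7% were above 1. The ratio at Cdkn2c was higher than at 88.6% of these genes and that at Cdkn2d higher than at 88.0%, while Cdkn1b was above 58.9% and Cdkn2b above 22.4%.

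**Figure D4:**
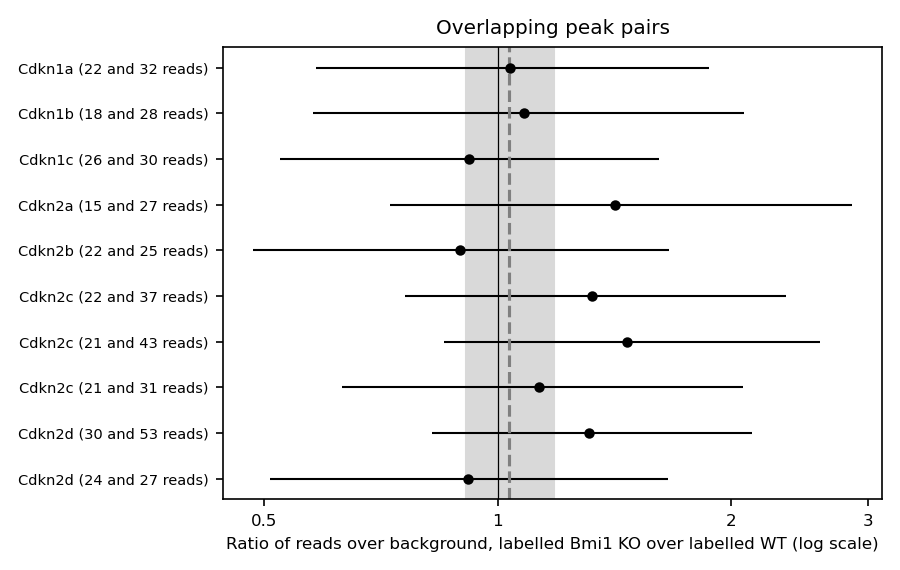
Ratio of reads over background, labelled Bmi1 KO over labelled WT, on a log x axis for the 10 overlapping peak pairs at the CDK inhibitor genes (y axis, with the reads at the WT and the Bmi1 KO summit), with exact 95% intervals for counting error. The dashed line and grey band are the median, 1.03, and middle 50%, 0.910 to 1.18, of the 6427 genes whose strongest promoter peaks overlapped. Only 4 of the 10 pairs are of that kind, at Cdkn1b, Cdkn2b, Cdkn2c and Cdkn2d. Every interval crosses 1. The pairs under Cdkn2c with 21 reads labelled WT are at Faf1.

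The proteins that these inhibitors act with were looked at as a fixed list of 19 genes of the G1/S transition, from the kinases Cdk2, Cdk4 and Cdk6 and their cyclins to Rb1 and its relatives, the E2f factors, Skp2, which marks p27Kip1 for degradation, Trp53 and Mdm2. Promoter peaks were found at 17 of them in the WT-labelled list, 18 in the Bmi1 KO-labelled list and 17 in both. Over all protein-coding genes the shares were 59.1%, 68.2% and 53%. The strongest ranked higher in the Bmi1 KO-labelled list for 14 of 18 and lower for 4. Among all protein-coding genes with one in either list, 68.8% ranked higher. The median difference in percentile over the partner genes with one in both was 3.86, against 5.45 over all genes. The largest rises were those of E2f2 (0.571 to 96.7), an activator of replication genes, and Ccnd1 (1.32 to 80.2), the cyclin D1 partner of Cdk4. The largest falls were those of Rb1 (86.5 to 74.1), the target of Cdk4, and Ccnd3 (75.8 to 64.1). At E2f2, Ccnd1 and Ccnd3 the strongest peaks of the lists did not overlap, so those percentiles belong to different sites. The WT-labelled peaks of E2f2 and Ccnd1 were weak, with fold enrichments of 1.89 and 1.85. Rbl1, for the Rb relative p107, had a promoter peak in the Bmi1 KO-labelled list only (percentile 94.5), and Trp53 had none in either. Overlapping strongest peaks were present at 11 of the 19, with ratios of reads over background from 0.733 to 1.26 and a median of 1.11. Of these 0 reached 1.5, against 3.73% of all genes with such a pair. All of these values come from the same pair of libraries as those of the inhibitors.

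**Figure D5:**
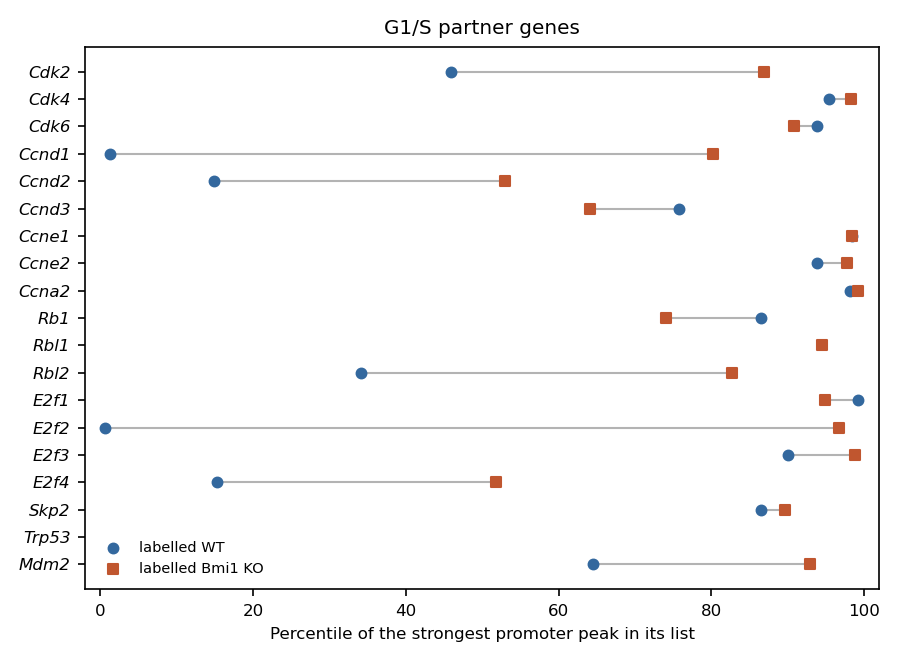
Percentile of the strongest promoter peak (x axis) at the 19 G1/S partner genes (y axis), as blue circles for the WT-labelled list and red squares for the Bmi1 KO-labelled list. Red lies to the right for 13 of the 17 genes with both points, and E2f2 and Ccnd1 have the longest lines, from 0.571 to 96.7 and from 1.32 to 80.2. At E2f2 and Ccnd1 the line joins peaks that do not overlap.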

How the data were processed

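ATAC-seq was made from 1 library of the organ of Corti per genotype, and samples were grouped by the genotype in the labels. The authors trimmed the reads, aligned them with BWA-MEM and found peaks with MACS2 library by library, and the submitters' processing notes name mm10, FastQC and HOMER as well. Versions and MACS2 options are not given in the sources used here. The deposited fold enrichment is a ratio of the summit pileup to the local background, after 1 was added to both as a pseudocount. The −log10 p deposited beside it is for that pileup, and the deposited −log10 q is its value after correction for multiple testing in the same library. A deposited score, 10 times the −log10 p, was not used, and the other deposited columns are positions.

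Only chromosomes 1 to 19, X and Y were used, which left out 230 of 77826 peaks (labelled WT) and 237 of 100668 (labelled Bmi1 KO). The lowest −log10 p was 2.00 and 2.01. Transcripts came from GENCODE vM21 (GRCm38). Lists were compared by an overlap of at least 1 bp. Summit pileups and their backgrounds were worked out from the fold enrichment and −log10 p, which gave whole pileups for 100% of the 6427 gene pairs of overlapping strongest promoter peaks, within 0.001 in −log10 p, after the solution was tested on simulated data. Ratios have exact conditional binomial intervals, shares exact binomial and reads exact Poisson intervals at 95%. The lists give no read totals, so the solved background is the only measure of depth. With 1 library per genotype genotypes were not tested against each other and differences carry no p-value.

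The genes named in the text are the 7 members, Bmi1, any gene whose TSS is inside a peak of a member or nearer to its summit, and from the G1/S list the 2 largest and 2 smallest (most negative) percentile differences and the genes without a promoter peak in a list. The members, marker lists and G1/S list were chosen with earlier results of these data known. Promoter sequences were looked up for 6 of the 7 genes. Alternatives were stricter q-values, equal numbers of peaks, other windows and overlaps, and other scales. Python 3.11.15, numpy 2.4.6, pandas 2.3.3, scipy 1.17.1, matplotlib 3.10.9 and samtools 1.23.1 were used.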

Additional observations from a re-analysis of the deposited data

How the results depend on the processing

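Keeping only peaks with a q-value under 0.05 left 7 of the 15 peaks labelled WT, and 85.7% of those overlapped a peak labelled Bmi1 KO in place of 60%. The overlap in the other direction fell from 55.6% to 35.3%, and the genes with a promoter peak in both lists from 6 to 4. At a −log10 q of at least 5 there were 0 peaks labelled WT and 3 labelled Bmi1 KO (2 at the starts of Cdkn2c and Cdkn2d and 1 at Faf1), so with no WT-labelled peak left the overlap of the latter was 0%, 0 genes had a promoter peak in both lists, 2 genes ranked higher in the list labelled Bmi1 KO, and the overlap of the former had no value. No direction reversed under the alternatives run. The 23 other values of this kind stayed within 1.5 times or within the interval. Among those 23 are the overlap of 35.3% and the 4 genes with a promoter peak in both lists. Each value given for the limit of 5 moved beyond that range. The Arf peak has a q-value of 0.0226 and is lost at the stricter limit. At Cdkn1c the percentile difference of -15.6 became -0.51 with a promoter window of 1 kb and -30.4 with equal numbers of peaks, and at Cdkn2d 3.32 became 10.2 by fold enrichment. Percentile differences changed at the other genes as well. At Cdkn2b -3.48 became -7.06 with equal numbers of peaks, and at Cdkn1b 51.2 became 43.5 by fold enrichment. At Cdkn1a 52.3 became 48.5 with equal numbers of peaks and 59.3 with a promoter window of 1 kb. With summits of 15 to 53 reads every interval of a ratio includes 1, and with 1 library per genotype the spread between animals is not covered. No paired analysis was possible because each genotype has 1 library and the labels give no replicate numbers.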
